A study of Mus musculus with 12 samples.

Results

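The olfactory bulb of adult transgenic mice was compared with that of wildtype mice at 4 months of age. The comparison rests on 6 of the 12 arrays of the series, chosen by their titles: 3 arrays labelled tg (numbers 1, 2 and 8) and 3 labelled wt (numbers 3, 9 and 10). Both groups are mice of the FVB/N strain, and the transgenic group carries hGFAP, read here as human glial fibrillary acidic protein. The other arrays hold the same genotypes at P23, early after birth. The sources used here do not give the promoter or line of the transgene, its copy number, the sex of the mice, or whether an array holds RNA of a single animal. The p-values therefore measure the spread between arrays, which may be partly technical.

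GFAP is the main intermediate filament protein of astrocytes, and its level is the usual marker of reactive gliosis. Mutations of human GFAP cause Alexander disease, in which astrocytes fill with Rosenthal fibers, aggregates of GFAP with small heat shock proteins, and extra wildtype human GFAP gives similar aggregates in mice. The bulb is a relay of smell: axons of sensory neurons end on mitral and tufted cells, and granule and periglomerular interneurons, renewed through life by migrating neuroblasts, inhibit them. Each array measured total RNA of bulb tissue, so fewer cells of a type and less RNA per cell cannot be told apart.

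The endogenous Gfap gene (chr11:102887336-102897200, GRCm38.p6) was read first. Signals are linear intensities scaled to equal array medians, with lower values raised to a floor of 209, and every change written as a value ± SE is on the log2 scale, transgenic minus wildtype. The scaled signal of Gfap was 5970, 5454 and 6710 on wildtype arrays 3, 9 and 10, and 23516, 24070 and 20549 on transgenic arrays 1, 2 and 8, the order used for all values given by array. All transgenic arrays lay above all wildtype arrays, and the log2 change was 1.91 ± 0.15 (SE, n = 3 per group; limma, adjusted p = 3.50e-07). Whether that probe set also binds the human transcript was not tested. At P23 it did not pass (0.23 ± 0.15, limma, adjusted p = 0.57), so it is not a check of the genotype labels. Markers of the bulb were far above the floor on each array, among them Omp of sensory axons, Th of dopaminergic cells and Gad1 of inhibitory interneurons. Across tested probe sets, which are not independent replicates, Pearson correlations were 0.966 to 0.972 between wildtype arrays, 0.960 to 0.968 between transgenic arrays, and 0.896 to 0.906 between the genotypes. RNA integrity, read as the signal of the 3' beta-actin control over its 5' counterpart, was 1.29 to 1.41 on the wildtype and 1.15 to 1.29 on the transgenic arrays. The same ratio for the Gapdh control was 0.780 to 0.816 on the wildtype and 0.824 to 0.853 on the transgenic arrays, so the actin ratio was lower and the Gapdh ratio higher in transgenic bulb, both without overlap.

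Of 7453 probe sets above the filter on low signal, 691 were higher in transgenic bulb (9.27% of those tested) and 1443 were lower (19.4%), at an adjusted p under 0.05 in limma. Together 28.6% were called. The large changes were mostly on the higher side: 284 probe sets were higher by 2-fold or more (3.81%) against 81 lower by 2-fold or more (1.09%), and 92 were higher by 4-fold or more against 3 lower. The transgenic arrays lay wholly above the wildtype arrays for 957 probe sets (12.8%) and wholly below for 2270 (30.5%). Counted by gene, each taken from its brightest probe set, 546 of 5664 were higher (9.64%) and 1110 were lower (19.6%). The median log2 change was 0.89 among the higher genes and -0.51 among the lower genes.

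**Figure D1:**
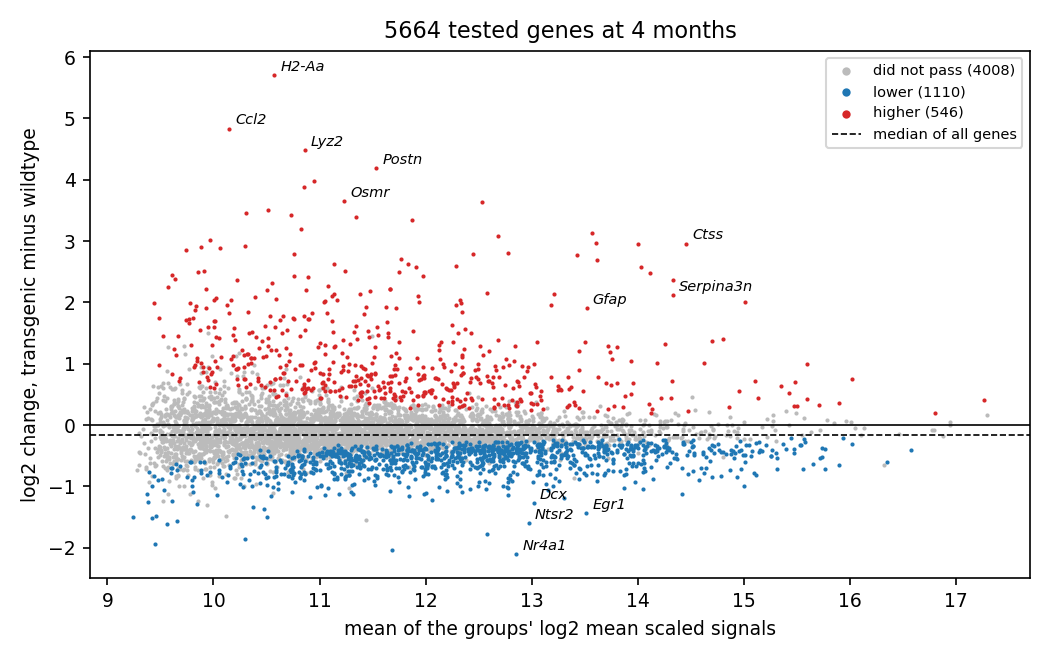
Each point is a gene at 4 months, placed by the mean of its groups' log2 scaled signals (x) and by log2 change, transgenic minus wildtype (y); red genes were higher, blue lower, grey did not pass, and the dashed line is the median of all genes, -0.16. The changes above the line reach 5.71 for H2-Aa, whose wildtype arrays are at the floor, and those below reach -2.10 for Nr4a1.

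The balance between higher and lower depended on how the arrays were brought to a common scale. With equal array medians, as used throughout, the median change of all tested probe sets was -0.16. It was -0.09 with quantile normalization and with scaling to the 75th percentile, -0.06 with values as deposited, and 0.12 with scaling to the bacterial control probe sets. Calls split into 691 higher and 1443 lower under equal medians, 789 and 1085 at the 75th percentile, 811 and 960 by quantiles, 833 and 932 as deposited, and 1120 and 269 by bacterial controls. Of the 691 higher probe sets, 684 were called under all 5 scalings, but of the 1443 lower ones 268. Among genes, 540 of 546 higher and 199 of 1110 lower held in all 5. Wherever the lower members of a gene list are counted, the number that held under all 5 scalings is therefore given. Lower genes are named mostly from those that held.

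**Figure D2:**
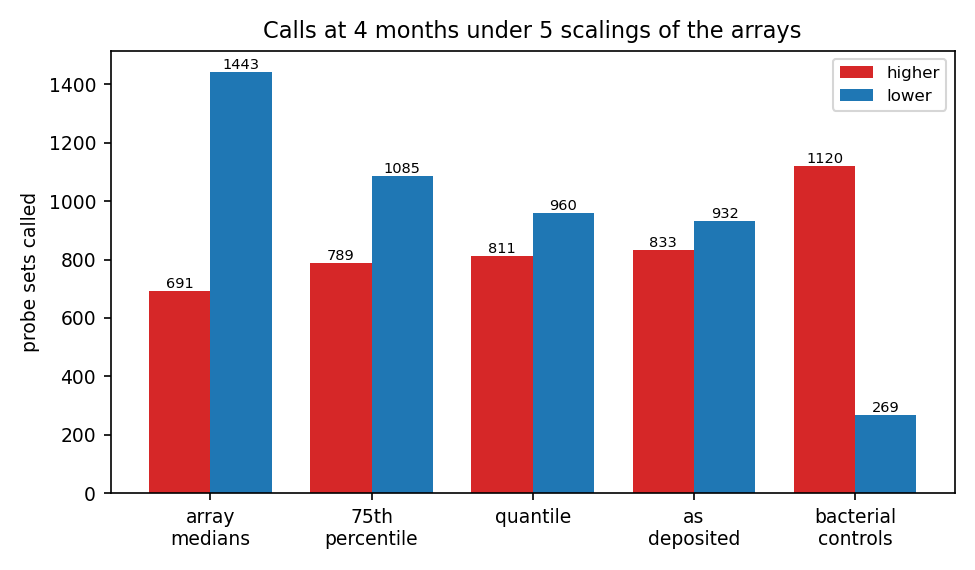
Bars give the number of probe sets called higher (red) or lower (blue) in transgenic bulb at 4 months under 5 scalings of the arrays. The higher calls range from 691 with equal medians to 1120 with bacterial control scaling, and the lower calls from 1443 to 269.

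Of the intermediate filaments and lamins, 3 of 9 tested genes rose and 3 fell. Nes, the filament of neural progenitors and reactive astrocytes, read 1616, 1298 and 1604 on the wildtype and 7542, 7004 and 6323 on the transgenic arrays, a log2 change of 2.21 ± 0.13. Lmna, a lamin of the nuclear envelope, rose by 0.52 ± 0.11. The neuronal filaments moved the other way: Ina changed by -0.92 ± 0.12 and Nefm by -1.51 ± 0.30 on the log2 scale, and both held under all 5 scalings, while Nefh was no longer called with bacterial control scaling. Vim, a filament that assembles with GFAP, was under the filter and read 490 to 830 in wildtype and 546 to 706 in transgenic bulb, so its groups overlapped.

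Small heat shock proteins, some of which are found in Rosenthal fibers, were split. Cryab, alpha B-crystallin, read 1372, 1438 and 1529 in wildtype and 3890, 3901 and 2871 in transgenic bulb (log2 change 1.28 ± 0.16, adjusted p = 4.01e-05). Hspb8, a chaperone of the same family, rose by 1.27 ± 0.15. Hspb1, the mouse HSP27, was under the filter, at 209 to 372 in wildtype and 209 to 332 in transgenic bulb, and Hspb2 did not pass the test (log2 change of 0.43). Bag3, a chaperone partner, had 2 probe sets: the brighter one did not pass (0.20 ± 0.20) and the dimmer one was higher, by 1.49 ± 0.32 (adjusted p = 0.0028), so its call depends on the probe set.

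Reactive astrocyte genes had 12 of 16 tested members higher and none lower, with a median log2 change of 1.05 against -0.16 over all genes. Serpina3n, a secreted protease inhibitor of reactive glia, went from 9643, 8921 and 11207 to 40320, 44224 and 43826. Osmr, the receptor subunit for oncostatin M, read 638, 593 and 809 in wildtype and 10033, 8296 and 7258 in transgenic bulb, a log2 change of 3.65 ± 0.17. Cp, the copper-binding ferroxidase ceruloplasmin, changed by 3.88 ± 0.27, Tnc, a matrix glycoprotein, by 2.37 ± 0.22, and Anxa3, an annexin, by 3.40 ± 0.20. The groups did not overlap for any of these 5 genes, but they were picked by low adjusted p or as large changes without overlap. Over all tested probe sets, 12.8% had all transgenic arrays above all wildtype arrays. Lcn2, a secreted protein often used as a marker of acute astrocyte reaction, had probe sets that differed. The brighter one, counted here, did not pass (982 to 1210 against 940 to 1566, adjusted p = 0.52), and the dimmer one was higher by 4.08 ± 0.46 (adjusted p = 1.53e-05), from a mean of 227 ± 15.1 in wildtype to 3831 ± 330.2 in transgenic bulb (SD, n = 3 each). Fkbp5 and Hsbp1 did not pass.

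Genes of resting astrocytes were mostly lower or did not pass: 10 of 22 tested fell, 5 of them under all 5 scalings, and 3 rose, with a median of -0.27. Ntsr2, a neurotensin receptor of astrocytes (chr12:16653443-16660236), read 13460, 13680 and 14669 in wildtype and 5414, 3893 and 4570 in transgenic bulb, a log2 change of -1.60 ± 0.12. Slc1a2, the main glutamate transporter, was at 2027, 2235 and 2579 against 1210, 1218 and 347, with transgenic array 8 the lowest. Gjb6, a gap junction protein, changed by -1.07 ± 0.13, Plpp3, a lipid phosphatase, by -0.80 ± 0.14 and Sparcl1, a secreted synaptogenic protein, by -0.73 ± 0.07; these 5 genes are those that held under all 5 scalings. The exceptions were the water channel Aqp4 (0.34 ± 0.09), the fatty acid binding protein Fabp7 (0.36 ± 0.09) and Id3 (0.76 ± 0.15), which rose. Without transgenic array 1 the call of Aqp4 was lost, at an adjusted p of 0.058. Clu did not pass (0.18 ± 0.09). The gap junction gene Gja1 did not pass by its brightest probe set (-0.05 ± 0.12), while another, dimmer, was lower by a log2 change of -0.93 ± 0.31 (adjusted p = 0.038). With bacterial control scaling 5 of this list were higher.

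**Figure D3:**
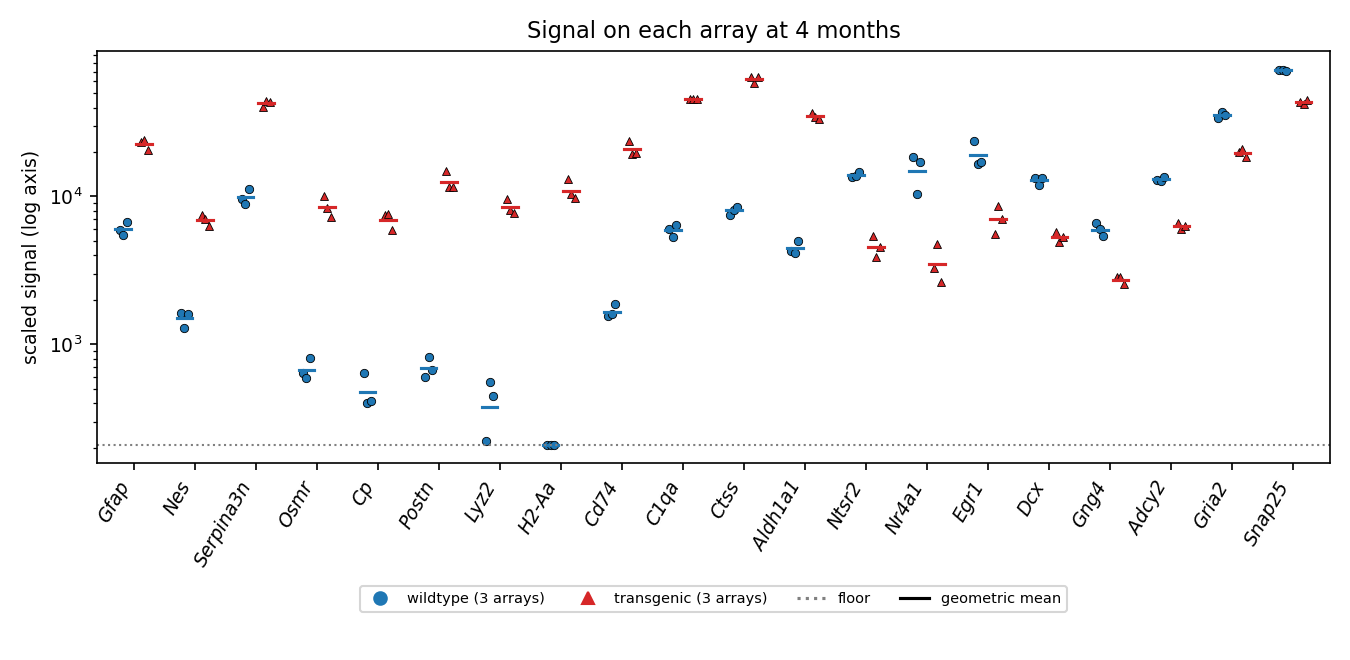
Scaled signal on each of the 6 arrays at 4 months (log axis) for 20 genes described in the text; circles are wildtype, triangles transgenic, horizontal lines geometric means, and the dotted line the floor of 209. The transgenic arrays lie above the wildtype arrays from Gfap to Aldh1a1 and below them from Ntsr2 to Snap25.

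Microglia are the resident macrophages of brain, and of 17 tested marker genes 16 were higher, each by 2-fold or more and under all 5 scalings. The member that did not pass was Coro1a (0.33 ± 0.13). The summed signal of the list was 35584 to 36448 on the wildtype and 160192 to 171491 on the transgenic arrays, and the median log2 change was 1.96. Ctss, the lysosomal cathepsin S, read 7514, 8161 and 8496 against 64541, 58926 and 64610, a log2 change of 2.96 ± 0.08 (adjusted p = 1.26e-11). Csf1r, the receptor that keeps microglia alive, changed by 1.96 ± 0.10, and Cd68, a lysosomal glycoprotein of phagocytes, by 2.50 ± 0.13. Lyz2, lysozyme of myeloid cells, went from 221, 554 and 444 to 9573, 8156 and 7768. With each of the 6 arrays left out in turn, 15 or 16 of the 17 were called.

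Receptors and adaptors through which phagocytes signal had 9 of 13 tested genes higher and none lower. Tyrobp, the adaptor DAP12, read 1614, 853 and 1121 in wildtype and 11988, 11993 and 11097 in transgenic bulb. Fcgr1, the high-affinity receptor for IgG, changed by 2.01 ± 0.21, and Cyba, a subunit of the phagocyte oxidase, by 1.99 ± 0.13. Syk, Fgr and Inpp5d, kinases and a phosphatase of the same receptors, did not pass.

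Complement proteins tag debris and synapses for removal, and 9 of 11 tested complement genes were higher. The chains of C1q, which starts the classical cascade, are made in brain mostly by microglia. C1qa read 6002, 5349 and 6424 against 45728, 45716 and 45422, C1qb changed by 3.09 ± 0.12 and C1qc by 2.70 ± 0.12. They are neighbours on chromosome 4, between 136880126 and 136898844. C3ar1, the receptor for the C3a fragment, changed by 2.92 ± 0.22, and Serping1, the inhibitor of C1, by 2.43 ± 0.18. C2 and Cr1l did not pass (0.39 and 0.62). The microglial markers moved with this list, and their part in its change was not tested.

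MHC class II molecules show peptides to helper T cells, and in brain they are made by activated microglia and other myeloid cells. H2-Aa, an alpha chain, was at the floor of 209 on the 3 wildtype arrays and read 13095, 10330 and 9749 on the transgenic arrays, at least 52.4-fold higher (limma, adjusted p = 1.26e-10). Wildtype H2-Aa was at the floor at both ages, so the gene passed the filter on low signal only through transgenic arrays. Cd74, the invariant chain, went from 1557, 1592 and 1867 to 23840, 19247 and 19757, and H2-Ab1, a beta chain, from 449, 265 and 623 to 5434, 5181 and 3807. H2-DMa and H2-DMb1, which load the peptides, changed by 1.67 ± 0.28 and 1.51 ± 0.18. In all, 5 of 6 tested genes were higher; the remaining one, Ciita, the master regulator of class II genes, did not pass (680 to 1090 against 620 to 820).

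The promoter of H2-Aa is shown because class II promoters carry a conserved box that reads as an inverted CCAAT (CTGATTGG, the Y box), and because this gene had the largest change. The 200 bases before its start (chr17:34287824-34288023, minus strand, GRCm38.p6, RefSeq) hold that box and, further upstream, the cyclic AMP response element TGACGTCA, both in capitals.
H2-Aa: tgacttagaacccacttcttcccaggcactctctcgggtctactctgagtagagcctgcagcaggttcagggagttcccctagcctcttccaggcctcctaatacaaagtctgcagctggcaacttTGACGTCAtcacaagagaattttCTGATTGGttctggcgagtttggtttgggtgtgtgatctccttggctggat
The Y box lies 51 to 44 bases and the response element 74 to 67 bases before the start. The search covered both strands from 250 bases before to 50 after the start. The Y box was found in 319 of 4581 tested genes with a promoter entry (6.96%) and in 4.1% of all 32851 promoters. For the response element these shares were 3.47% and 1.79%. A gene counts if any of its listed starts has a match, while the share of all promoters counts each start singly, so the 2 shares are not alike. H2-DMa and H2-DMb1 held neither. H2-Ab1 and Cd74 were not part of this search.

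Class I presentation, which displays peptides of every cell to killer T cells, had 11 of 16 tested genes higher and 1 lower. B2m, the light chain of all class I molecules, read 7007, 5620 and 7940 in wildtype and 46839, 43573 and 32132 in transgenic bulb. H2-K1 changed by 2.48 ± 0.09 and H2-D1 by 2.37 ± 0.09; class I heavy chains are near-identical, so H2-K1, H2-D1 and H2-Q4 may share signal on this array. Psmb8, a subunit of the immunoproteasome, changed by 2.50 ± 0.22 and Tap1, the peptide transporter, by 1.29 ± 0.15. Canx, a chaperone of heavy chains in all cells, was the lower member, and was no longer called with bacterial control scaling or without wildtype array 10.

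Interferon response genes were higher in 15 of 22 tested cases and lower in none, with a median of 1.14. Ifitm3, a membrane protein that blocks viral entry, read 4827, 4190 and 3701 in wildtype and 29726, 28552 and 27932 in transgenic bulb. Ifi27, an interferon-induced protein, changed by 1.29 ± 0.13, Gbp3, a guanylate-binding GTPase, by 2.14 ± 0.23, and Ifit3 by 1.77 ± 0.24. Ifnar1, a chain of the interferon receptor, and Irf3, a factor that starts interferon production, did not pass (-0.04 and 0.13). The microglial markers moved with this list, with both lists of antigen presentation and with the lysosomal list, and their part in those changes was not tested.

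Interferon acts on such genes through the response element ISRE, whose core was searched as GAAANNGAA on both strands. Of 13 higher interferon genes with a promoter entry, 7 held a match (53.8%). The share was 11.8% of all 439 higher genes, 8.03% of tested genes and 8.56% of all promoters. Genes are again counted by any listed start and promoters singly. The members with a match were Gbp3, Ifit3, Ifitm3, Irgm1, Irgm2, Isg15 and Trim25. The 200 bases before the start of 4 of them are shown, with the matches in capitals; Isg15 and Irgm1 were chosen for their match after their values were seen.
Ifit3: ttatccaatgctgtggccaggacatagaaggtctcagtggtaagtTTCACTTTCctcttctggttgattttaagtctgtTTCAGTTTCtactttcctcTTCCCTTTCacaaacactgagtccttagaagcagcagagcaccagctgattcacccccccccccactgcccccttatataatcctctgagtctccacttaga
Isg15: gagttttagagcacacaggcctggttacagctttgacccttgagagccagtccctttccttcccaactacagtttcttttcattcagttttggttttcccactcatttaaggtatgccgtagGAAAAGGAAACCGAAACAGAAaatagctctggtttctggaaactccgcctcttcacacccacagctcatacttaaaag
Gbp3: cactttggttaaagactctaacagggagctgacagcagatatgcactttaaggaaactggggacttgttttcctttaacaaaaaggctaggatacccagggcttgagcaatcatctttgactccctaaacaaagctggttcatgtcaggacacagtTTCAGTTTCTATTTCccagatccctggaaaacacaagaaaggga
Irgm1: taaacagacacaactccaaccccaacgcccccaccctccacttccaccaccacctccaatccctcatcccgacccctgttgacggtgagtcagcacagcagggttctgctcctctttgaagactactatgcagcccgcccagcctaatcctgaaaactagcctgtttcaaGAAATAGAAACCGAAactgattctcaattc
They lie at chr19:34583329-34583528 (plus strand), chr4:156200819-156201018 (minus), chr3:142559844-142560043 (plus, 1 of 2 listed starts) and chr11:48871421-48871620 (minus) of GRCm38.p6, per RefSeq. In Ifit3 there are 3 separate matches on the opposite strand, and in Isg15, Gbp3 and Irgm1 neighbouring matches overlap by their ends. Isg15, a ubiquitin-like protein, read 1979, 839 and 1714 in wildtype and 4902, 4597 and 5447 in transgenic bulb, and Irgm1, an immunity-related GTPase, 735, 675 and 788 against 1703, 1647 and 1382. A match describes the letters and does not show that a factor binds.

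Chemokines recruit leukocytes, and 4 of 12 tested chemokine and cytokine genes rose while 1 fell. Ccl2, which attracts monocytes (chr11:82035577-82037452), was at the floor on each wildtype array and read 8000, 5823 and 4551 on the transgenic arrays, at least 28.5-fold higher. Like H2-Aa, Ccl2 passed the filter only through transgenic arrays. Cxcl1, which attracts neutrophils, went from 327, 679 and 209 to 4030, 4317 and 3511, and Csf1, a growth factor of microglia, from 2623, 1793 and 2231 to 6846, 6666 and 5675. Cx3cl1, the neuronal ligand of the microglial receptor Cx3cr1, fell: it read 33774, 32589 and 33580 in wildtype and 16999, 18192 and 18764 in transgenic bulb, and held under all 5 scalings. The receptor itself rose by 1.23 ± 0.13. A pair of probe sets for Cxcl12 moved in opposite directions, by -0.70 ± 0.18 and 0.64 ± 0.22, so no direction is given for that gene, although its brightest probe set was called lower.

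Among cytokine receptors and their signalling proteins 17 of 38 tested rose and 1 fell. Cebpd, a transcription factor of the acute phase response, went from 2636, 2522 and 2785 to 20385, 18033 and 17493. Tnfrsf1a, a receptor for tumour necrosis factor, changed by 1.69 ± 0.16, and Stat3, which carries signals of the interleukin-6 family including oncostatin M, by 0.60 ± 0.15 (adjusted p = 0.0073). Jak1, Csf3r and Stat5a did not pass, and the lower gene, Jak2, was not called under the other 4 scalings. The list shares Csf1r and Cx3cr1 with the microglial markers, which moved with it and with the chemokines; their part in these changes was not tested.

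Of 12 tested lymphocyte and granulocyte genes 3 were higher and 1 lower, where over all genes 9.64% were higher and 19.6% lower. Ighm, the heavy chain of IgM, rose by 0.80 ± 0.15. The granulocyte genes Camp (adjusted p = 0.013) and S100a8 (adjusted p = 0.049) were called with less certainty: Camp was lost without the filter, without transgenic array 8 and without wildtype array 10, S100a8 without any 1 of the 6 arrays, without the filter, with the higher floor, without a trend and after quantile normalization, and with single arrays left out 1 to 2 of the list were higher. The lower gene, Thy1, which held under all 5 scalings, is also a surface protein of neurons. The list's summed signal was 24997 to 27420 in wildtype and 21787 to 25840 in transgenic bulb, so the ranges overlapped.

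Lysosomal genes were higher in 23 of 43 tested cases, 15 of them by 2-fold or more, and lower in 3. Ctsd, the aspartic protease cathepsin D, read 16748, 15179 and 17388 in wildtype and 60182, 65141 and 72772 in transgenic bulb. Ctsz, another cathepsin, changed by 2.22 ± 0.15, Man2b1, an alpha-mannosidase, by 2.04 ± 0.12, Grn, progranulin, by 1.57 ± 0.11 and Ctsb by 1.38 ± 0.08. The lower members were subunits of the proton pump, Atp6v1a, Atp6v0d1 and Atp6ap1, which also serves synaptic vesicles; none of the 3 held under all 5 scalings. Cst3 and Psap did not pass.

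Of 28 tested genes of lipid transport 10 were higher and 2 lower. Apod, a lipocalin of glia, read 18493, 16062 and 18007 against 45495, 56520 and 38032. Npc2, which moves cholesterol out of lysosomes, changed by 1.05 ± 0.09, Dbi, an acyl-CoA binding protein, by 1.01 ± 0.08, Apoc1 by 1.22 ± 0.19, and Abca1, a cholesterol exporter, by 0.78 ± 0.13. Fabp3 changed by -0.79 ± 0.13 and held under all 5 scalings. Of 24 tested genes for synthesis of cholesterol and fatty acids 1 was higher, Srebf1 (0.38 ± 0.08), a regulator of the pathway, and 1 was lower, not under all 5 scalings. With bacterial control scaling 17 of the transport and 5 of the synthesis genes were higher.

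Matrix genes included some of the largest changes. Postn, periostin, a secreted protein of scars and fibroblasts (chr3:54359267-54391041), read 597, 814 and 673 in wildtype and 14869, 11519 and 11541 in transgenic bulb, a log2 change of 4.19 ± 0.18. Col5a2, a fibrillar collagen, changed by 2.71 ± 0.16, Matn2, a matrilin, by 1.73 ± 0.18 and Col4a1, of basement membrane, by 1.15 ± 0.11. In all, 18 of 53 tested matrix genes rose and 3 fell, 2 of the latter under all 5 scalings, while Col6a1 did not pass (0.10 ± 0.11). Col1a2, a chain of type I collagen, did not pass by its brightest probe set (0.04 ± 0.10), but a dimmer one was higher by 1.62 ± 0.34 (adjusted p = 0.0029). Vtn, vitronectin, was lower, at 8069, 6232 and 8489 against 3471, 3638 and 3540.

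Proteases that act on matrix, and their inhibitors, rose in 13 of 30 cases. Mmp12, the macrophage elastase, went from 388, 701 and 423 to 9234, 6861 and 7008, and Plat, tissue plasminogen activator, from 7746, 6612 and 7284 to 20296, 20825 and 14854. Serpini1, neuroserpin, the neuronal inhibitor of that activator, was the lower member, at 47217, 45175 and 46742 against 21615, 23227 and 25006, and held under all 5 scalings. Timp1, an inhibitor of metalloproteases, was called (0.77 ± 0.24, adjusted p = 0.028), but the call was lost in 6 alternatives, among them the fits without transgenic array 8, wildtype array 3 or wildtype array 9, with adjusted p up to 0.12.

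Adhesion genes rose in 18 of 37 cases, and 1 was lower, not under all 5 scalings; with single arrays left out 1 to 4 were lower. Vcam1, which binds leukocytes, changed by 2.14 ± 0.17, Mcam by 1.73 ± 0.16, and Itgb1, the common beta chain of many integrins, by 1.01 ± 0.10. Of the S100 proteins, annexins and galectins, calcium or sugar binding proteins of many reactive cells, 14 of 21 rose. S100a6 read 1734, 2535 and 2138 against 14712, 13413 and 15565, Lgals1, galectin-1, 3108, 2622 and 2962 against 14027, 12828 and 11745, and Lgals3bp changed by 1.92 ± 0.23. S100b, an astrocyte marker, was called lower (-0.44 ± 0.14) but not under the other 4 scalings, and S100a5 and S100a10 did not pass.

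Enzymes against oxidants and toxins rose in 13 of 52 cases and fell in 3, with a median of 0.14. Aldh1a1, which makes retinoic acid and clears aldehydes, read 4301, 4148 and 4969 in wildtype and 36635, 34594 and 33582 in transgenic bulb. Nqo1, a quinone reductase and a classic target of the factor NRF2, went from 354, 404 and 286 to 1356, 1598 and 1189. Gstm1, a glutathione transferase with close relatives on the array, changed by 0.99 ± 0.08, Txnrd1, a thioredoxin reductase, by 1.23 ± 0.11, Gpx3 by 1.50 ± 0.15 and the epoxide hydrolase Ephx1 by 2.62 ± 0.30. Nfe2l2, the gene of NRF2 itself, picked after its values were seen, changed by 1.36 ± 0.16. The antioxidant response element, searched as TGACNNNGC, was found in 4 of 12 higher members with a promoter entry (33.3%), 1 of 3 lower members (33.3%), 16.2% of 439 higher genes and 16.7% of tested genes. With bacterial control scaling 21 members of the list were higher. Prdx2, Mgst3 and Sod1 were lower, each no longer called with bacterial control scaling.

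Metal handling genes rose in 8 of 20 cases, and 2 were lower, none under all 5 scalings and 1 to 3 with single arrays left out. Mt1 and Mt2, metallothioneins that bind zinc and copper, changed by 0.72 ± 0.10 and 0.63 ± 0.13; they are similar in sequence and lie side by side with Mt3 on chromosome 8. Slc11a1, the iron transporter of phagosomes, read 442, 517 and 244 against 2588, 3049 and 2897. Fth1, ferritin heavy chain, had 1 probe set higher by 0.76 ± 0.07 and another, dimmer, at -0.32 ± 0.11, so its direction depends on the probe set; it is counted by the brighter one. Tfrc, the transferrin receptor, did not pass (adjusted p = 0.47).

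The other glia of the bulb changed in both directions. Among myelin and oligodendrocyte genes 11 of 22 rose and 3 were lower, none of the 3 under all 5 scalings. The higher ones included Pmp22 (2.10 ± 0.14), Gsn (0.99 ± 0.09) and Cldn11 (0.99 ± 0.16), which other cells also make. Mbp, the major myelin protein, read 30564, 31220 and 30159 in wildtype and 25957, 26413 and 22473 in transgenic bulb, a log2 change of -0.30 ± 0.08 that was called under 2 of the 5 scalings and was lost without transgenic array 8. Pdgfra, the receptor of oligodendrocyte precursors, rose from 4503, 5186 and 4843 to 8368, 7695 and 8984, while Ptprz1, a phosphatase of precursors and astrocytes, changed by -1.04 ± 0.14 and held under all 5 scalings.

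Genes of olfactory ensheathing glia, which wrap the sensory axons, rose in 9 of 14 cases, among them Sparc (1.21 ± 0.15), a secreted matrix protein. The 3 lower members, Npy among them, did not hold under all 5 scalings, and with single arrays left out 1 to 2 were lower. Omp, the marker of mature sensory neurons whose axons enter the bulb, read 10236, 7964 and 7561 in wildtype and 12963, 13081 and 13076 in transgenic bulb (0.62 ± 0.17, adjusted p = 0.012). That call was lost without wildtype array 10 and in the fit with no filter on low signal, with adjusted p up to 0.058. Of 7 tested genes of sensory neuron axons and epithelium 2 were higher and 2 lower, none of the 2 lower under all 5 scalings. Omp and Nrp1 were higher, Gap43 and Ncam2 lower, and S100a5, Adcy3 and Olfr15 did not pass. With single arrays left out, 0 to 2 of this list were higher and 0 to 2 lower.

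Ependyma and choroid plexus markers were higher in 5 of 7 cases. Rarres2, chemerin, went from 926, 2007 and 1590 to 8974, 9191 and 8468, Aqp1, the water channel of choroid plexus, from 943, 635 and 1456 to 4619, 4049 and 5292, and Foxj1, the master gene of motile cilia, from 1658, 1153 and 1484 to 2931, 3238 and 3313. The summed signal was 32636 to 36955 in wildtype and 58510 to 62635 in transgenic bulb. Meningeal and fibroblast genes rose in 10 of 23 cases, including the matrix proteoglycans Dcn (0.96 ± 0.13) and Lum (1.51 ± 0.22), but their summed signals overlapped, at 164630 to 210808 and 158114 to 211427. The 1 lower member of that list did not hold under all 5 scalings. The part of meninges or ventricular wall in these changes was not tested. Endothelial and mural markers had 2 of 19 higher, Cldn5 of tight junctions (3888 to 4339 against 7395 to 8980) and Tagln of smooth muscle (1.13 ± 0.20), close to the background of 9.64%, and 6 with bacterial control scaling. None of 6 red blood cell genes passed, and the values of Hba-a1, a globin with near-identical copies, overlapped between the groups.

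**Figure D4:**
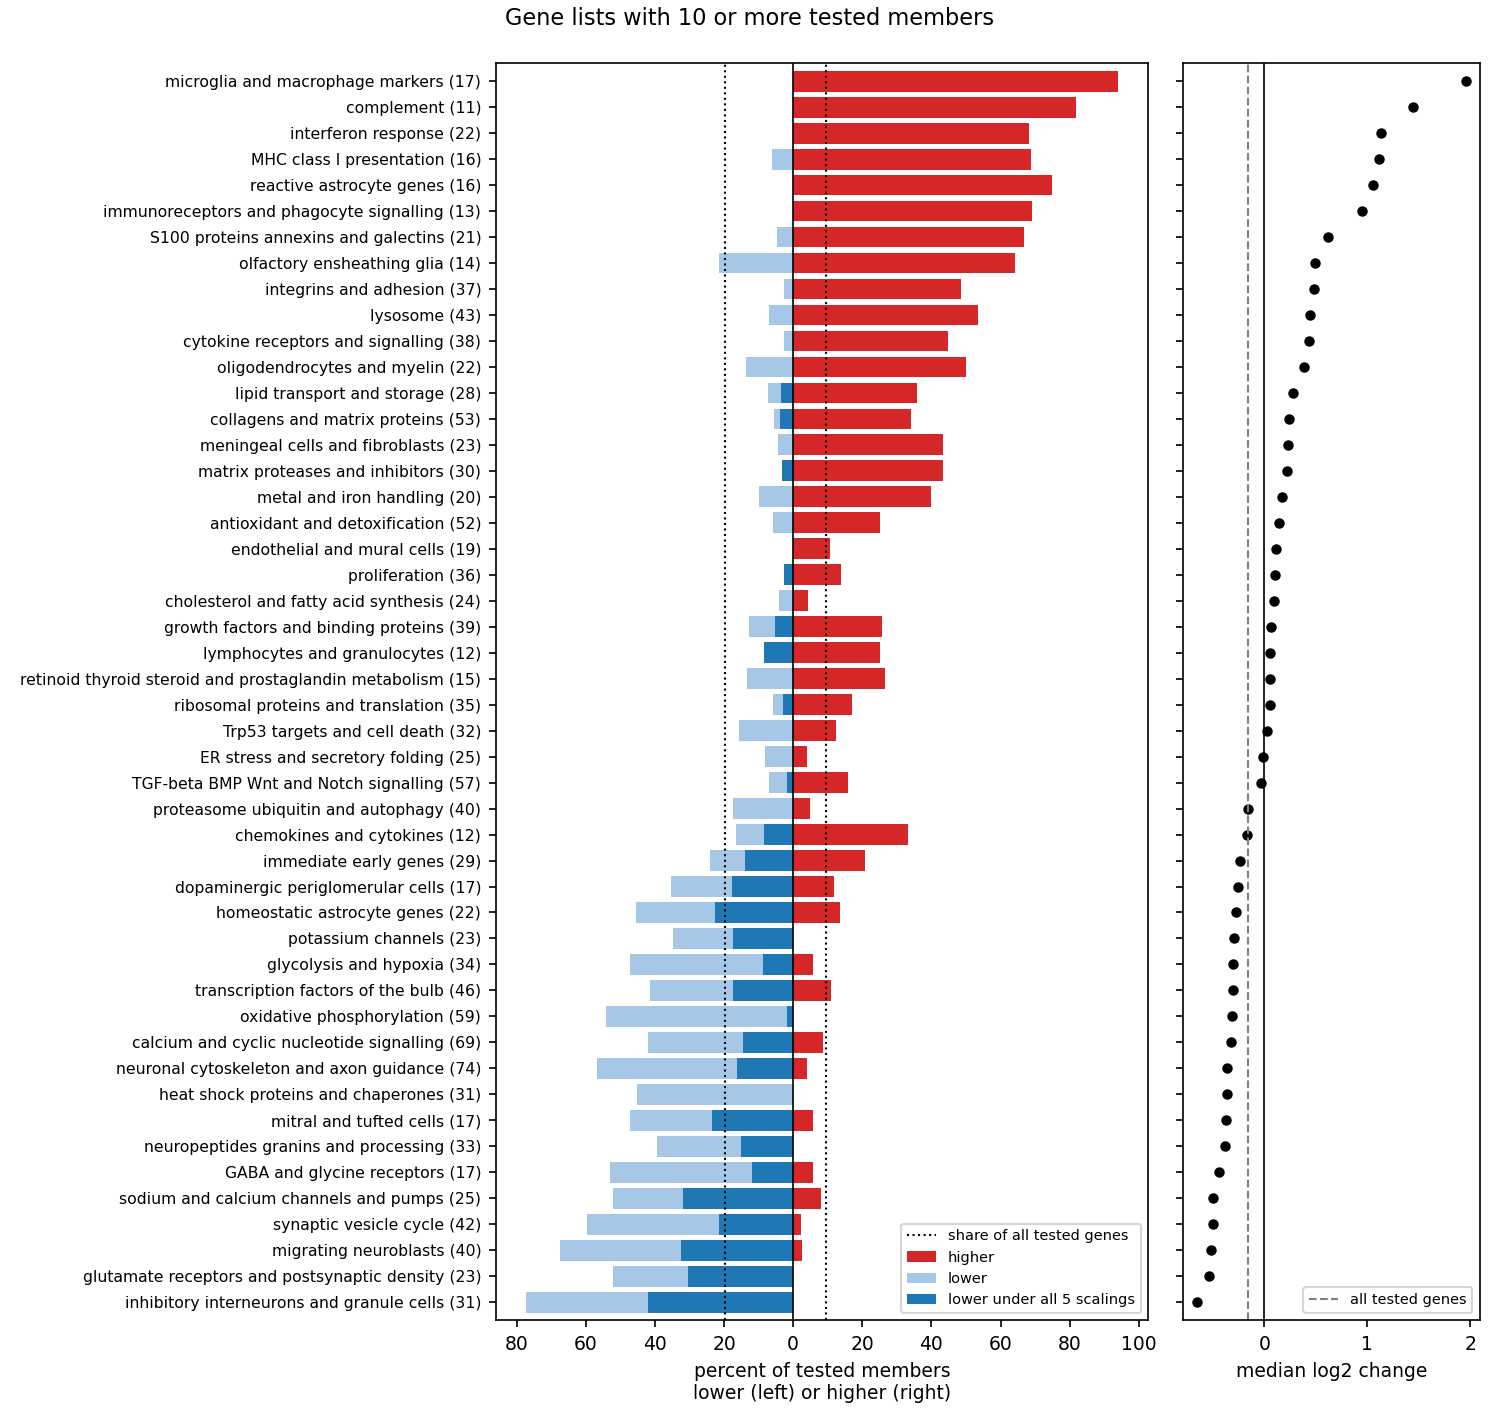
Left, percent of the tested members of each gene list that were lower (left of 0) or higher (right of 0) in transgenic bulb, for lists with 10 or more tested members; dark blue marks lower members called under all 5 scalings, and dotted lines are the shares over all genes, 9.64 and 19.6 percent. Right, the median log2 change of each list, with -0.16 for all genes as a dashed line: microglial markers are highest at 1.96 and inhibitory interneurons lowest at -0.66.

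Inhibitory interneurons, the most numerous neurons of the bulb, had a median of -0.66. Of 31 tested genes 24 were lower and none higher, and 13 of the 24 held under all 5 scalings. Gad1, which makes GABA, read 76624, 74918 and 77411 in wildtype and 50762, 49537 and 45032 in transgenic bulb (-0.66 ± 0.08, adjusted p = 5.09e-05). Dlx1 and Dlx2, homeobox factors of interneurons, changed by -0.75 ± 0.09 and -0.99 ± 0.13, Penk, proenkephalin, by -0.84 ± 0.09, and Gng4, a G protein subunit of granule cells, by -1.12 ± 0.11. Sst and Slc6a13 did not pass. The list's summed signal was 427290 to 458013 in wildtype and 281772 to 296753 in transgenic bulb.

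Migrating neuroblasts bring new interneurons to the bulb, and 27 of 40 tested genes of this list fell, 13 under all 5 scalings, with a median of -0.52. Dcx, doublecortin, the microtubule protein that marks them (X:143855842-143933396), read 13341, 11987 and 13262 in wildtype and 5760, 4942 and 5314 in transgenic bulb, a log2 change of -1.27 ± 0.08. Nrep changed by -1.18 ± 0.14, Stmn3, a tubulin-binding stathmin, by -0.81 ± 0.07, Crmp1, a relay of axon guidance, by -0.77 ± 0.08 and Sox11, a factor of immature neurons, by -0.67 ± 0.10. Tuba1a and Reln did not pass. Ccnd2, a cyclin of cycling progenitors, was the 1 higher member; its wildtype values were 615, 209 and 963, and the call was lost without the filter and without transgenic array 1, 2 or 8 or wildtype array 9.

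The lists for dopaminergic and for mitral cells had calls in both directions. Of 17 tested dopaminergic cell genes 6 were lower, 3 under all 5 scalings, and 2 were higher, Aldh1a1 and Maoa. Those that held were Meis2 and the genes Nr4a1 and Nr4a2, which are also on the list of immediate early genes. Th, the enzyme that limits dopamine synthesis, read 19802, 15209 and 15705 against 11086, 11690 and 11633, and lost its call with bacterial control scaling. Maoa, which degrades amines, rose by 1.08 ± 0.11, and Meis2, a homeobox factor, changed by -0.73 ± 0.13. Among mitral and tufted cell genes 8 of 17 fell, 4 under all 5 scalings: Thy1 (-0.92 ± 0.08), Cck, cholecystokinin (-0.88 ± 0.12), Nefm and Gria1. The 1 higher member was Nrp1, with a log2 change of 0.55. Its call was lost without the filter, without transgenic array 2 or 8 and without wildtype array 3 or 10. Eomes, a factor of mitral and tufted cells, did not pass by its brightest probe set (-0.37 ± 0.15), while a dimmer one was lower (-0.60 ± 0.21, adjusted p = 0.044). Uchl1 did not pass.

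Genes of the synaptic vesicle fell in 25 of 42 cases, 9 under all 5 scalings, and 1 rose. Snap25, which fuses vesicles with the membrane, read 72311, 71856 and 70157 in wildtype and 43311, 42170 and 45167 in transgenic bulb. Its partner Vamp2 read 50445 to 53499 against 30044 to 32684. Snap91, a clathrin adaptor, read 12058 to 14104 against 5963 to 7264, and Napb, which helps recycle the fusion proteins, changed by -0.96 ± 0.12. Ap2m1 and Clta, which many cells use for endocytosis, did not pass.

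Glutamate receptors and the proteins that anchor them fell in 12 of 23 cases, 7 under all 5 scalings, with none higher. The AMPA receptor subunit Gria2 read 34022, 37474 and 35472 in wildtype and 19871, 20856 and 18634 in transgenic bulb. Its relatives Gria1 and Gria3 changed by -0.80 ± 0.11 and -1.01 ± 0.15. Nrgn, neurogranin, which binds calmodulin in dendrites, was at 2509, 2003 and 2129 against 998, 881 and 254, with transgenic array 8 the lowest. The list of GABA and glycine receptors had 9 of 17 tested members lower and 1 higher, Gabarap. It also holds proteins that are not receptors, and Gphn, Gabarapl1 and Gabarapl2 were among its lower members. The receptor genes Gabra2 (-1.09 ± 0.20) and Glrb (-0.81 ± 0.11) were the lower members that held under all 5 scalings, while Gabrb2 did not pass. With single arrays left out 5 to 8 members of the list were lower.

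Potassium channel genes fell in 8 of 23 cases, 4 under all 5 scalings. Kcnd2, an A-type channel of granule cells, read 6459, 6185 and 6675 against 3577, 2729 and 2131. Kcnab2, a channel subunit, changed by -1.04 ± 0.10 and Kcnma1, a calcium-activated channel, by -0.72 ± 0.09. Kcna1 did not pass (0.30 ± 0.12). Sodium and calcium channels and pumps fell in 13 of 25 cases, 8 under all 5 scalings, among them Atp2b2, a calcium pump (-1.01 ± 0.11), Cacna1g, a T-type calcium channel (-1.16 ± 0.15), and Scn1a, a sodium channel (-0.78 ± 0.12). Itpr2, the calcium release channel prominent in astrocytes, rose by 1.02 ± 0.20.

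Signalling by calcium and cyclic nucleotides had both directions, with 29 of 69 genes lower, 10 under all 5 scalings, and 6 higher, or 10 with bacterial control scaling. Adcy2, a neuronal adenylyl cyclase, read 12885, 12789 and 13628 in wildtype and 6606, 6037 and 6268 in transgenic bulb. Gnai1, an inhibitory G protein subunit, changed by -1.02 ± 0.12 and Prkce, a protein kinase C, by -1.01 ± 0.13. The higher members included Adcy7 (1.71 ± 0.29), Prkcd (1.09 ± 0.17) and Gnai2 (0.43 ± 0.06), relatives of these genes that immune cells are known to use. Cytoskeleton and axon guidance genes fell in 42 of 74 cases, 12 under all 5 scalings, for example Basp1 (-0.64 ± 0.06), a growth cone protein, and Klc1 (-0.71 ± 0.07), a kinesin light chain. Chl1, a cell adhesion molecule, rose by 1.41 ± 0.24.

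Neuropeptides and the granins that pack them fell in 13 of 33 cases, 5 under all 5 scalings, with none higher. Chgb, chromogranin B, read 30802, 29968 and 29342 in wildtype and 15941, 18461 and 17504 in transgenic bulb, and Scg2, secretogranin II, 19978, 15128 and 16886 against 10723, 11229 and 8280. Their promoters are shown because both hold the cyclic AMP response element TGACGTCA, in capitals, a site through which factors of the CREB family act.
Chgb: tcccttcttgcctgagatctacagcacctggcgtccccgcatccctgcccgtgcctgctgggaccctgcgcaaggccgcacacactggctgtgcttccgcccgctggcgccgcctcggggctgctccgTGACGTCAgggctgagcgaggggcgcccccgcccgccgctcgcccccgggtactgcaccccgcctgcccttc
Scg2: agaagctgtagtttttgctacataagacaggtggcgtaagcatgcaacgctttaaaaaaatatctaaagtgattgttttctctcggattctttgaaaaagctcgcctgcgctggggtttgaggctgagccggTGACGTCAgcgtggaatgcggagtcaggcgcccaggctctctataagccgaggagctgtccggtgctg
These are the 200 bases before each start, at chr2:132781442-132781641 (plus strand) and chr1:79440027-79440226 (minus strand) of GRCm38.p6, per RefSeq, and the element begins 72 and 68 bases before the start. The element was in 2 of 11 lower members of the list with a promoter entry (18.2%), in 5.13% of 917 lower genes, in 2.05% of 439 higher genes and in 3.47% of tested genes.

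Immediate early genes, switched on within minutes of activity, had calls in both directions, with 7 of 29 lower, 4 of them under all 5 scalings, and 6 higher. The lower count is close to the background of 19.6%; 9.64% of all genes were higher. Nr4a1, an orphan nuclear receptor (chr15:101253902-101274795), had the largest fall of all tested genes, from 18404, 10351 and 17200 to 3276, 4793 and 2653 (-2.10 ± 0.28, adjusted p = 7.13e-05). Egr1, a zinc finger factor, went from 23920, 16685 and 17063 to 5617, 8666 and 7034, Nr4a2 from 2640, 2228 and 1977 to 777, 781 and 1123, and the clock gene Per1 changed by -0.86 ± 0.18. Fos, the best known of the family, did not pass: it read 13098 to 21243 in wildtype and 7456 to 16294 in transgenic bulb, with overlap. Ier3 (1.43 ± 0.14), Klf6 (1.33 ± 0.15) and Dusp6 (0.78 ± 0.13), which growth factors and cytokines also induce, rose.

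Energy metabolism and chaperones gave many small lower calls that rested on the scaling. Oxidative phosphorylation genes were lower in 32 of 59 cases with a median of -0.32, and of these Ndufb3, of complex I, held under all 5 scalings (-0.79 ± 0.12). Of 31 heat shock proteins and chaperones 14 were lower and none higher, and none of the 14 held; Hspa8, for example, read 30305 to 37686 against 23078 to 25947. With single arrays left out, 9 to 14 of the chaperones were lower. No direction is given for these families as a whole, since with bacterial control scaling 1 and 0 of their members were lower. Glycolysis and hypoxia genes were lower in 16 of 34 cases, of which Eno2, the neuronal enolase, Pygm, a glycogen phosphorylase, and Pgam1 held, at -0.82 ± 0.07, -1.15 ± 0.16 and -0.61 ± 0.11. Hk2, an inducible hexokinase, rose from 463, 344 and 500 to 2311, 1572 and 1394.

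Ribosomal and translation genes had 6 of 35 higher and 2 lower, 1 of the 2 under all 5 scalings. Scaling to the bacterial controls gave 18 higher, and the signals without rescaling 13. Eef1a2, the elongation factor of neurons, changed by -0.81 ± 0.10 while Eef1a1, used by other cells, did not pass (0.05 ± 0.07). Proteasome and autophagy genes had 2 of 40 higher, with Sqstm1, an autophagy receptor also found in protein aggregates, at 0.30 ± 0.08. There were 7 lower, none under all 5 scalings and 3 to 10 with single arrays left out. The lower count is close to the background of 19.6%, and the median of the list, -0.16, was that of all genes. Of 25 genes of folding and stress in the endoplasmic reticulum 1 rose, Pdia4 (0.76 ± 0.12), and Hspa5, the main chaperone there, did not pass (0.04 ± 0.13). There 2 genes were lower, none under all 5 scalings and 0 to 2 with single arrays left out. With bacterial control scaling 5 proteasome and autophagy genes and 4 of the endoplasmic reticulum were higher.

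Of 32 Trp53 target and cell death genes 4 rose, among them Phlda3 (1.43 ± 0.16) and Gadd45a (1.28 ± 0.19), a growth arrest gene, and 5 were lower, none under all 5 scalings and 2 to 4 with single arrays left out. These counts are close to the backgrounds of 9.64% and 19.6%, and 7 rose with bacterial control scaling. Proliferation genes were higher in 5 of 36 cases, in 2 to 5 with single arrays left out and in 9 with bacterial control scaling; the 1 lower member, Stmn1, a tubulin-binding stathmin that is also on the neuroblast list, held under all 5 scalings. Ccnd1, cyclin D1, read 2776, 2096 and 2762 against 9994, 9962 and 9314. Genes of retinoid, thyroid, steroid and prostaglandin metabolism were higher in 4 of 15 cases and lower in 2, none of the 2 under all 5 scalings, with the higher ones including Tspo (0.59 ± 0.09), a mitochondrial protein used to image gliosis.

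Growth factor genes and their binding proteins rose in 10 of 39 cases and were lower in 5, 2 of them under all 5 scalings. Igfbp3, which binds insulin-like growth factors, changed by 2.41 ± 0.24 and Pros1, protein S, by 2.06 ± 0.28. Tyro3, a receptor for protein S on neurons, changed by -0.78 ± 0.13 and held under all 5 scalings. Of the TGF-beta, BMP, Wnt and Notch genes 9 of 57 rose, among them Dkk3 (1.91 ± 0.15), Bmp1 and Bmp7, and 4 fell, of which Ptch1, the hedgehog receptor, held under all 5 scalings; 5 to 7 were higher with single arrays left out. Transcription factors of the bulb fell in 19 of 46 cases, 8 under all 5 scalings, including Dlx1, Dlx2 and Sox11, and 5 rose, or 1 to 4 with single arrays left out. Lmo4, a LIM domain cofactor, rose by 0.95 ± 0.15.

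Genes that are near the floor except in adult transgenic bulb can miss the filter, since it used the mean over all 12 arrays. H2-Aa and Ccl2, at the floor in wildtype, passed the filter only through the transgenic arrays. In a limma fit without the filter, 131 of the 2587 genes under it were higher and 26 lower at 4 months. Of the 5664 genes above it, 546 were higher and 1110 lower in the main fit. The genes given here were picked by size or name after their values were seen. Klk6, a serine protease of oligodendrocytes and reactive glia, was at the floor on the wildtype arrays and read 6106, 7736 and 5826 on the transgenic arrays, at least 31.1-fold higher. Cst7, cystatin F, a marker of microglia near lesions, went from 209, 256 and 220 to 5492, 6579 and 6846. Ccl12, a monocyte chemokine, was at least 14.1-fold higher, Cd44, the hyaluronan receptor, at least 8.88-fold, and Ifi47, an interferon-induced GTPase, at least 5.95-fold. Fcgr2b, Itgam, Ncf1 and Itgb2 of phagocytes, and Gbp2 and Ifit1 of the interferon response, were higher as well, with no overlap between the groups. Lgals3, galectin-3, read 227, 209 and 325 against 3208, 2872 and 2716. Cxcl10, an interferon-induced chemokine, did not pass (adjusted p = 0.2).

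The lower genes under the filter included neuronal ones. Gabrd, the delta subunit of extrasynaptic GABA receptors of granule cells, read 1877, 1386 and 1155 in wildtype and 339, 235 and 222 in transgenic bulb (-2.47 ± 0.56, adjusted p = 0.017). Pcdh7, a protocadherin, changed by -2.25 ± 0.52, Fezf2, a transcription factor, by -1.44 ± 0.20, and Dlx1as, which lies antisense to Dlx1 and may share its signal, by -1.78 ± 0.46. Their transgenic values were close to the floor, where signals are less precise.

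**Figure D5:**
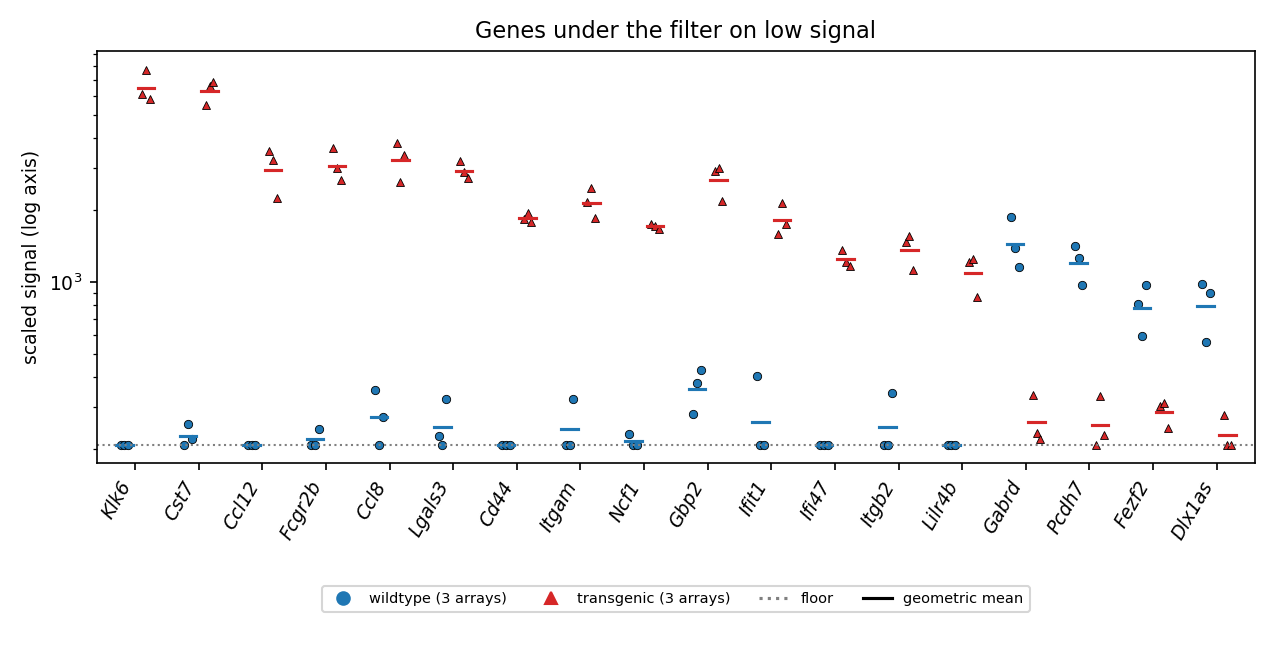
Scaled signal on each of the 6 arrays (log axis) for 18 genes under the filter on low signal; circles are wildtype, triangles transgenic, lines geometric means and the dotted line the floor of 209. From Klk6 to Lilr4b the transgenic arrays lie above the wildtype arrays, and from Gabrd to Dlx1as below them.

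Neighbouring genes were called together in 28 runs of 3 or more tested genes, with gaps of at most 500 kb. The longest higher run lay in the MHC, chr17:34119693-34591754, and held H2-DMa, H2-DMb1, Tap1, Psmb8, H2-Ab1, H2-Aa and Gpsm3. Others were C1qb, C1qc and C1qa, the trio Lipa, Ifit2 and Ifit3 on chromosome 19, the metallothioneins Mt3, Mt2 and Mt1, and Fxyd5, Fxyd7 and Fxyd1, regulators of the sodium pump, on chromosome 7. The lower runs included Nsf, Crhr1 and Mapt on chromosome 11, where Mapt, the tau gene, changed by -0.72 ± 0.09 and Nsf, which recycles the fusion machinery, by -0.80 ± 0.14. Each lower run held at least 1 gene whose call was lost with bacterial control scaling, in this run Crhr1. How many runs the share of 19.6% lower genes would give by itself was not tested.

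Several probe sets read the same gene in 922 cases. At least 1 was called in 415 of those genes, all were called the same way in 141, and 3 genes had probe sets called in opposite directions, Cxcl12, Fth1 and Tln1. Tln1, talin, which ties integrins to actin, had 1 probe set at -0.59 ± 0.16, another at 0.62 ± 0.16 and its brightest not called. Among called genes named in the text, at least 1 dimmer tested probe set did not pass for Atp6v1a, Basp1, Bmp1, Canx, Csf1r, Cx3cl1, Gnai2, Gstm1, Klc1, Lmna, Man2b1, Mapt, Pdgfra, Prdx2, Ptch1, Ptprz1, Stmn3 and Tnfrsf1a. Of these, Klc1 (0.30 ± 0.15), Ptprz1 (0.22 ± 0.11), Gstm1 (-0.14 ± 0.14), Pdgfra (-0.10 ± 0.27) and Man2b1 (-0.02 ± 0.16) had at least 1 with the opposite sign to the call.

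The same contrast at P23 gave 122 probe sets higher and 35 lower. The effect of the transgene differed between the ages for 544 probe sets (7.3% of those tested; limma interaction), of which 263 were more positive and 281 more negative at 4 months. Among the probe sets called higher at 4 months, 255 had a significantly more positive effect than at P23. Among those called lower, 276 had a significantly more negative one, and none in either set differed significantly the other way. The 4-month values enter both the call and the difference, so these directions were largely set by the selection. Postn differed by 4.14 ± 0.26 on the log2 scale, from a change of 0.05 at P23. For Hspb8 the difference did not pass (-0.06 ± 0.21, adjusted p = 0.9); it was already higher at P23, by 1.33.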

How the data were processed

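Total RNA of olfactory bulb was measured on Affymetrix MG-U74Av2 arrays, 12488 probe sets of which 66 are controls. The deposited values are linear signal intensities; per the deposited values, each array had been scaled by the authors to an equal mean after trimming 2% at each end, and no label or header names the summary software. Array medians differed by up to 1.11 times, above the limit of 1.1 set for this check, so arrays were rescaled to equal medians, floored at the 20th percentile (209) and taken to log2.

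Probe sets whose mean over the 12 arrays lay above the 40th percentile (689) were kept, 7453 in all. They were fitted with limma 3.58.1 in R 4.3.3, as 4 group means with a variance trend (8 residual and 6.27 prior degrees of freedom), with Benjamini-Hochberg adjustment and a call at 0.05. The fit was tested on simulated data. The median half-width of the 95% interval of a change was 0.346 on the log2 scale, and the number of arrays limits the precision. A fold against a group with all arrays at the floor is a lower bound, the transgenic mean over the floor.

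Names came from the platform annotation: 10833 probe sets have 1 symbol, 396 several and 1193 none. A gene is shown by its brightest probe set. Genes were named by rule: a core list, the largest changes, members of each list, neighbouring runs, and genes with opposed probe sets. The largest changes were the 20 each way among called genes whose groups did not overlap. From each list came up to 5 called members each way, by lowest adjusted p, and up to 3 uncalled members. The members and lists were chosen with earlier results of these data known. Promoters are from RefSeq (GRCm38.p6), matched by symbol for 4581 of 5664 tested genes. Python 3.11.15, pandas 2.3.3 and matplotlib 3.10.9 were used for counts and figures. Alternatives were other scalings, floors, filters, array weights, moderation without a trend and leaving out each array.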

Additional observations from a re-analysis of the deposited data

Results flagged for a closer look

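For 17 genes of the core list the effect of the transgene differed between 4 months and P23 by limma's interaction test (adjusted p under 0.05, n = 3 arrays per group). Of all tested probe sets 7.3% differed, and the core list was chosen with earlier results of these data known. Cp, Slc1a2, Nqo1, Stat3, Th and Gria1 were among the core genes that did not pass this test. The values are log2 effects at 4 months minus those at P23.

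Among astrocyte genes the difference was 1.684 for Gfap, 1.087 for Nes, 1.559 for Serpina3n and 1.854 for Osmr, -0.7015 for Ntsr2 and 0.6315 for Aqp4. Gfap itself had not passed the test at P23, with an effect of 0.23 and an adjusted p of 0.57.

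Among immune genes it was 2.566 for H2-Aa, 1.538 for C1qb, 1.569 for Ctss, 2.164 for Lyz2 and 1.332 for Ccl2. Wildtype H2-Aa and Ccl2 were at the floor at both ages, so their differences rest on the transgenic arrays. The difference was 0.3672 for Fth1, 4.137 for Postn and 0.6035 for Pdgfra.

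Among neuronal genes it was -1.072 for Dcx, -0.602 for Gad1 and -0.5446 for Snap25, none of which had passed at P23.

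The sign was the same in each alternative that tested the gene. The call was lost with bacterial control scaling for Ntsr2, Gad1 and Snap25. It was lost without the filter, without the variance trend and without wildtype array 10 for Ntsr2, Fth1 and Pdgfra, and with array weights for Pdgfra. It was also lost without transgenic array 1 for Ccl2, Fth1 and Pdgfra, without transgenic array 2 for Ccl2 and Fth1, without transgenic array 8 for Pdgfra, without wildtype array 3 for Fth1 and Pdgfra, and without wildtype array 9 for Fth1.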

How the results depend on the processing

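With bacterial control scaling 1120 probe sets were higher and 269 lower, 444 and 21 by 2-fold or more, and 1476 differed between the ages. Lower probe sets numbered 960 with quantile normalization and 932 as deposited. By 2-fold or more, 142 were higher and 46 lower with a filter at the 60th percentile, 429 were higher with no filter, and 46 were lower as deposited. With single arrays left out, 584 to 622 were higher, 963 to 1287 lower, 269 to 293 and 75 to 112 changed by 2-fold or more, and 375 to 498 differed between the ages. Filters change how many probe sets are tested; the cause of the other changes was not tested. Of 525 named genes tested under 18 alternatives, 383 were called. Of 177 higher ones 150 kept the call in every alternative that tested them, and of 206 lower ones 85, with 114 lost under bacterial control scaling. That scaling turned the sign of 2 lower genes, Ei24 (0.038) and Mobp (0.031). No paired analysis was possible because the labels name nothing by which wildtype and transgenic arrays could be paired.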

Other observations

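On the X chromosome 53 of 165 tested genes were lower (32.1%) and 14 higher (8.48%), against 19.6% and 9.64% of all tested genes. Xist, the RNA of the inactive X of females, read 16663, 16198 and 15577 on the wildtype and 13426, 14731 and 10783 on the transgenic arrays, and was called lower under equal medians but not under the other 4 scalings. Eif2s3y, a gene of the Y chromosome, was at the floor on all 6 arrays. Xist and Eif2s3y were chosen after their values were seen.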
